A study of Mus musculus with 12 samples.

Results

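The baseline described here is the transcriptome of sorted spinal cord cells from control mice, taken as the 4 libraries of a series of 12 that the labels give to control mice. The labels give each library as the spinal cord of a single mouse at postnatal day 10, of the genotype CnpCre:Rosa26-StopFlox-TdTomato. These mice carried the Cre driver and the reporter but none of the floxed Ral alleles of the other 8 libraries, which were not used here. Cells were dissociated enzymatically, sorted for tdTomato and for large forward scatter, and collected in Trizol, and stranded mRNA libraries were prepared. The sources used here give neither zygosity nor sex. The 4 libraries are named control 1 to control 4 by mouse number, and nothing in this section compares them with mutants, so values are given with their spread and without a test. All levels are TPM (the relative abundance of transcripts, corrected for transcript length and set to the same total in every library) summed over the transcripts of a gene, so that genes can be compared with each other. In bulk RNA, fewer cells of a type and less RNA per cell cannot be told apart.

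Oligodendrocytes make the myelin of the central nervous system by wrapping axons in a membrane of unusual lipid and protein make-up. They arise from dividing precursors that express Pdgfra, pass through a committed and a newly formed stage marked by Gpr17 and Enpp6, and then switch on the genes of compact myelin under Sox10 and Myrf. In the rodent spinal cord myelination is under way in the second postnatal week. Cnp encodes a phosphodiesterase of non-compact myelin, and Cre under its control acts along this lineage. It also acts in Schwann cells, and its activity in precursors means that a tdTomato cell need not be mature.

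Libraries held 15.29, 11.88, 14.35 and 10.93 M estimated counts in controls 1 to 4. After scaling by TMM, which assumes that most genes are level, the factors ran from 0.949 (control 1) to 1.075 (control 3). Pearson correlations of log2(TPM + 1) across 9279 genes with a mean of at least 5 TPM were 0.964 for controls 1 and 3, the lowest pair, and 0.978 for controls 2 and 4, the highest. Genes are not independent replicates, and these values only describe the libraries. Controls 3 and 4 correlated at 0.976, near the highest pair, while control 1 was at 0.964 to 0.970 with every other library. Controls 1 and 3 each stood out in particular genes, which differed between them. Control 1 held more of Gm42418, a non-coding RNA annotated over ribosomal RNA sequence, at 7690 TPM against 1936, 2312 and 2141 TPM in controls 2, 3 and 4. Control 2 held RNA of both sex chromosomes. Xist, the non-coding RNA of the inactive X chromosome, stood at 0.608, 17.9, 23.7 and 12.2 TPM in controls 1 to 4, the Y-linked translation factor Eif2s3y at 11.75, 4.25, 0 and 0.0799 TPM and the Y-linked helicase Ddx3y at 7.12, 1.74, 0.110 and 0.0474 TPM. Control 1 thus held Y-linked RNA with little Xist, controls 3 and 4 the reverse, and control 2 both. Control 2 may therefore hold RNA of more than 1 mouse, against its label, which was not tested. Control 3 was the highest library for most markers of precursors, astrocytes, microglia and neurons, as given for each list below.

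All 5 oligodendrocyte markers were abundant in every library. Mbp, the main cytosolic protein of compact myelin, stood at 50277, 48581, 42839 and 43639 TPM in controls 1 to 4 and was the highest gene in each. Mag, an adhesion protein of the membrane next to the axon, stood at 13316, 10246, 10794 and 12429 TPM. Mobp, a small basic protein of compact myelin, stood at 7308, 7020, 6854 and 8696 TPM. The order Mbp, Mag, Mobp held in all 4 libraries, since the ranges of these genes did not overlap. Cnp stood at 7499, 6323, 5762 and 6728 TPM, and its range overlapped with that of Mobp. Mog, a surface protein of the outermost myelin layer that appears late in differentiation, stood at 2487, 2705, 2135 and 2834 TPM. It was the lowest of the 5, at rank 36 of all genes by mean, and lay below the other 4 in every library.

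The sequences just upstream of 3 of these marker genes are shown because they have a single start in the RefSeq table and hold words that oligodendrocyte factors are known to bind. Each line gives the 250 bases before the start in GRCm38.p6, from RefSeq, with matches in capitals on either strand. Capitals mark the SOX core (ACAAAG or ACAATG) and the core of the MYRF motif (CTGGCAC or CTGGTAC), and the TATA word (TATAAA) was searched too and had no match in the 3. Mobp is at chr9:120149492-120149741 (plus strand), Cnp at chr11:100574689-100574938 (plus strand) and Mog at chr17:37023399-37023648 (minus strand).
Mobp: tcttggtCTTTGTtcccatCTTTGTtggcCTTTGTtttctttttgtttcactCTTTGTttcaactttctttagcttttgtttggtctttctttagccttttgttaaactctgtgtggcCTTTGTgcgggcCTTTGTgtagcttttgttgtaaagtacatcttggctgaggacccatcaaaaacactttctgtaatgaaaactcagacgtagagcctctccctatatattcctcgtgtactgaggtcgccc
Cnp: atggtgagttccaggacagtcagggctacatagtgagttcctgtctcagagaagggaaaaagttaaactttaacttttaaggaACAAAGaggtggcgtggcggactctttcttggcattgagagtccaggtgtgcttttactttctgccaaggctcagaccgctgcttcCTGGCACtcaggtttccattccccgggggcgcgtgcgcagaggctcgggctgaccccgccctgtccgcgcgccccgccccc
Mog: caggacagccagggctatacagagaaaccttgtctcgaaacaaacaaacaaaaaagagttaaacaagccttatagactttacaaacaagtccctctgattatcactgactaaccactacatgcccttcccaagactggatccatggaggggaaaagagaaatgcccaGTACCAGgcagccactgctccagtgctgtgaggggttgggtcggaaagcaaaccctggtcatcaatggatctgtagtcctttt
Mobp held 6 SOX core matches between 120 and 243 bases before its start and no MYRF match. Cnp held a SOX core match 167 bases and a MYRF match 81 bases before its start, and Mog held a MYRF match at 83 bases and no SOX core. Of 24 myelin protein genes with an entry in the table (the start nearest to that of the most abundant transcript was taken), 8 held a SOX core (33.3%), against 16.1% of 9770 genes at a mean of 1 TPM or more and 25.2% of all promoters in the table. A MYRF match was present in 3 of the 24 (12.5%), against 5.28% of the 9770. The median content of G and C was 56.2% in the 24 and 60.8% in the 9770, and its part in these matches was not tested. A match describes letters in this window and is not a bound site.

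RNA was concentrated in few genes, and most of the highest ones were myelin, cytoskeletal, mitochondrial and translation genes. Mbp alone made up 4.63 ± 0.366% of summed TPM (SD, n = 4), the 10 highest genes of each library 12.83 ± 0.596% and the 100 highest 33.22 ± 1.16%. Between 286 and 347 genes accounted for 50% of the RNA. At least 1 TPM in all 4 libraries was reached by 11493 of 35675 annotated genes, 11048 of them protein-coding, and at least 1000 TPM by 112. In all 4 libraries 14505 genes were listed at 0, which for a single library allows up to 3 counts, or 0.196 to 0.275 counts per M (counting error only).

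**Figure D1:**
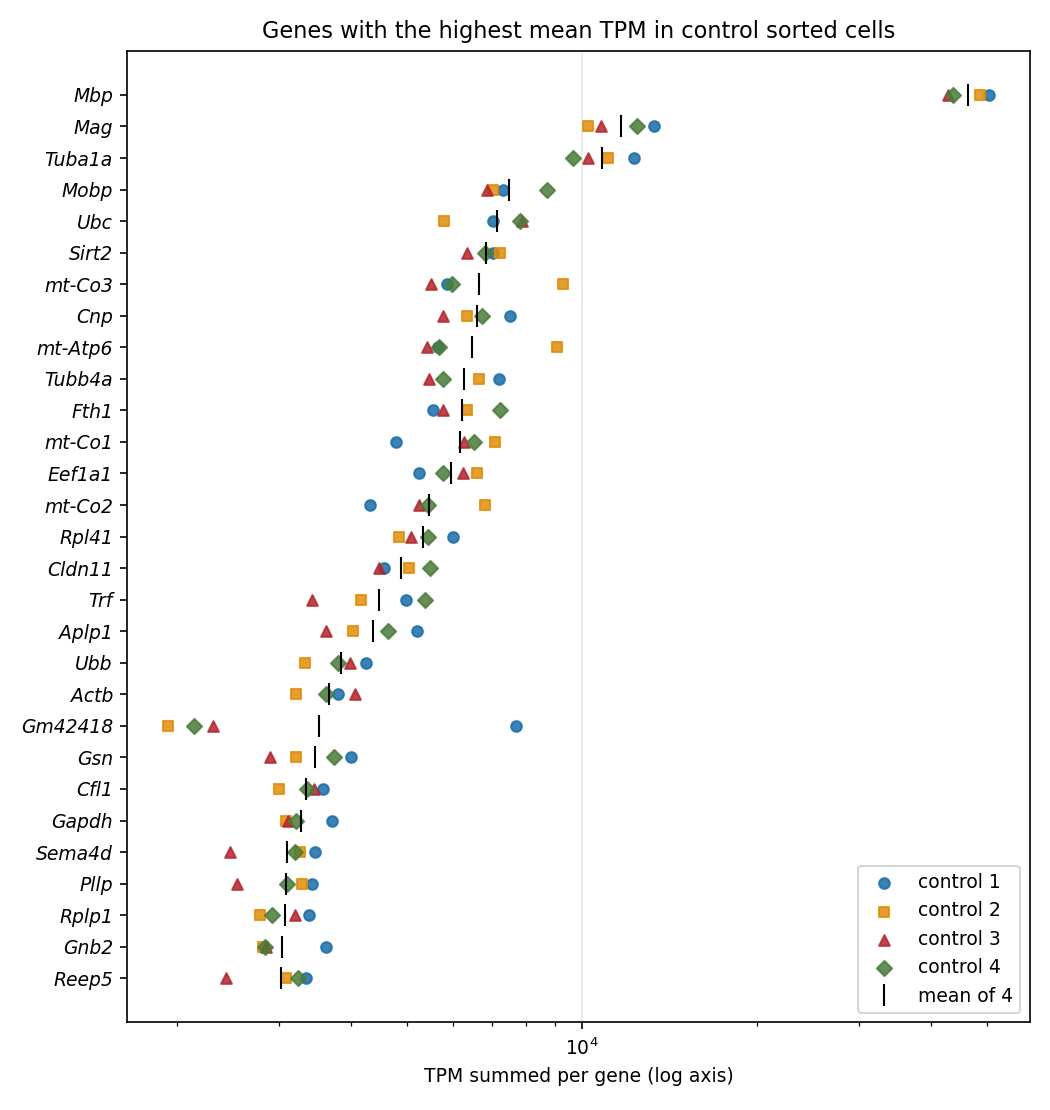
TPM summed per gene (log axis) of 29 of the 30 genes with the highest mean, with 1 point per control library and a tick at the mean of 4. Mbp lies apart from 42839 TPM upward, mt-Co3 and mt-Atp6 are high in control 2, and Gm42418 is high in control 1.

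Other leading genes served the cytoskeleton, iron handling and membrane contacts. Tuba1a, an alpha-tubulin of growing processes, stood at 12292, 11079, 10250 and 9640 TPM, and Tubb4a, a beta-tubulin enriched in oligodendrocytes, at 7189, 6631, 5439 and 5768 TPM. Both were highest in control 1. Sirt2, a deacetylase of myelin, had a narrow range of 6326 to 7230 TPM. The iron store Fth1 (5532 to 7208 TPM) and the iron carrier Trf (3422 to 5351 TPM) were among the 18 highest genes. So was the tight junction protein Cldn11 of central myelin (4464 to 5467 TPM).

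Ranks next to each other in this list were mostly not separated by the libraries. Of 29 adjacent pairs among the 30 highest genes, 27 overlapped in range. Estimated counts, which favour long transcripts, shared only 7 of the 10 highest genes with TPM. Scd2, a fatty acid desaturase, ranked 7 by count and 41 by TPM, and Nfasc, an adhesion protein of the paranode, 9 by count and 63 by TPM.

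The split of the main myelin transcripts between isoforms was steady over the libraries for Mag and Mog and less so for some Mbp forms. Mbp was spread over several isoforms, the 3 most abundant holding 35.35 ± 0.899%, 27.8 ± 2.20% and 27.3 ± 6.31% of its TPM (SD, n = 4). The next, of 354 bases, held 5.15 ± 5.05%, an SD near its mean. For Mag the 2 main ones held 53.2 ± 2.96% and 46.6 ± 2.89%, and Mog was nearly all a single form (99.03 ± 0.377%). Isoforms share most of their sequence, so this split is an estimate of the deposited quantification.

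By mean share of TPM, myelin protein genes led the lists examined. Ribosomal protein genes came next, and the myelin-forming stage list, which shares genes with the myelin list, was close at 9.27 ± 0.399% and above them in controls 2 and 4. Myelin protein genes (31 measured) made up 11.8 ± 0.509% of TPM (11.96%, 11.97%, 11.06% and 12.2% in controls 1 to 4), with control 3 lowest. Of these genes 30 reached 10 TPM in every library, and the exception was Cntn2, an axonal and juxtaparanodal adhesion protein, at 0.763, 0.322, 2.04 and 1.88 TPM. Ribosomal protein genes (86) made up 9.49 ± 0.423% of TPM but 2.80% of estimated counts, their transcripts being short. Protein-coding genes as a whole held 98.6 ± 0.243%. Long non-coding RNA held 1.46% in control 1 and 0.944% to 0.975% in the others, and 0.688% to 0.755% in all 4 once Gm42418 was set aside. After Gm42418 the highest were 2810468N07Rik (439 to 505 TPM), Cct6a (173 to 291 TPM) and 1810058I24Rik (167 to 251 TPM). The annotation types these genes as an antisense RNA, a processed transcript and an intergenic RNA. The long non-coding share rests on this type of the gene. TPM was summed over all transcripts of Cct6a, and no non-coding form of it was measured apart.

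**Figure D2:**
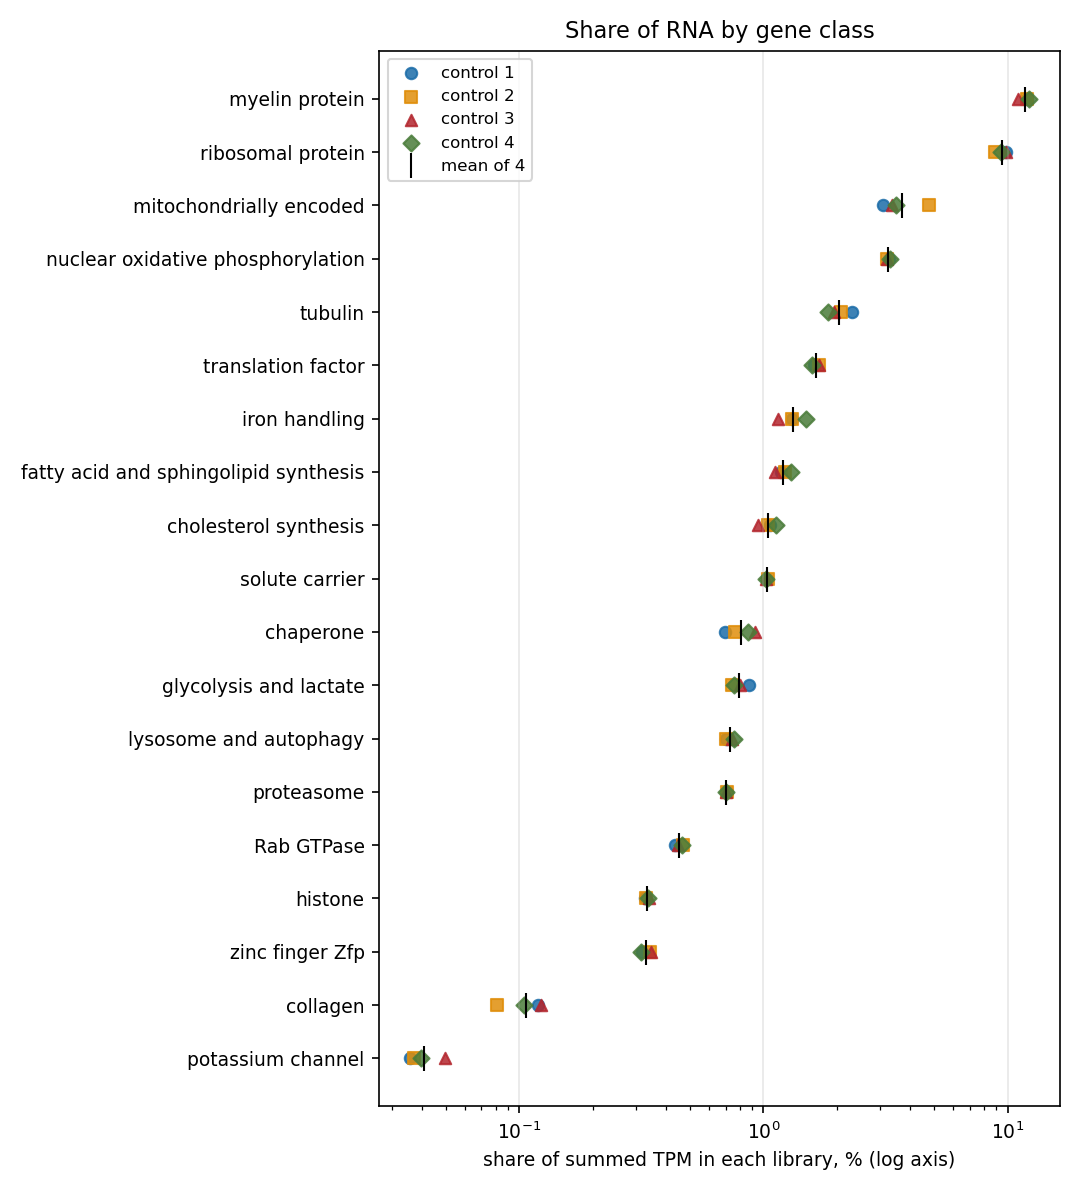
Share of summed TPM (log axis) held by 19 gene classes, with 1 point per control library and a tick at the mean of 4. Myelin and ribosomal protein genes lie near 10%, most classes have nearly coinciding points, and mitochondrially encoded genes are high in control 2.

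Energy genes differed in how far the libraries agreed. The 13 mitochondrially encoded genes held 3.095%, 4.77%, 3.38% and 3.49%, with control 2 above the others and all 4 of the leading genes highest there. Without control 2 their share averaged 3.32%. mt-Co3, a subunit of cytochrome oxidase, stood at 5858, 9259, 5487 and 5961 TPM, and mt-Atp6, of ATP synthase, at 5653, 9071, 5407 and 5677 TPM. The nuclear genes of oxidative phosphorylation (92) held 3.25 ± 0.0458% and varied little. Glycolysis and lactate genes (19) held 0.794 ± 0.0585%, led by Gapdh at 3093 to 3701 TPM, and 11 of them were above 100 TPM in every library. Slc16a1, a lactate exporter of oligodendrocytes, stood at 15.7 to 24.8 TPM. Hk2, the inducible hexokinase, was low at 1.76 to 7.72 TPM, below Hk1 (25.7 to 33.6 TPM) in every library.

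Cholesterol synthesis genes were abundant throughout, and other lipid genes ranged more widely. All 24 cholesterol synthesis genes reached 10 TPM in every library and 21 reached 100 TPM, and together they held 1.067%, 1.042%, 0.953% and 1.12% of TPM. Fdps, which makes farnesyl pyrophosphate, stood at 2034, 1494, 1407 and 1754 TPM. Hmgcs1, the synthase at the entry of the pathway, stood at 868, 1376, 1115 and 1374 TPM. Fdps was highest in control 1, where Hmgcs1 was lowest. Of 30 fatty acid and sphingolipid genes 23 reached 10 TPM in every library and 14 reached 100 TPM. Scd2 stood at 2180 to 2471 TPM and Scd1, its close relative, at 53.5 to 79.7 TPM. Ugt8a, which makes galactocerebroside, stood at 700, 1181, 996 and 1202 TPM, and Fa2h, which hydroxylates its fatty acid, at 997, 1030, 901 and 1089 TPM. Control 1 was lowest for Ugt8a, and for Fa2h control 3 was. Gal3st1, which sulphates galactocerebroside, ran from 739 to 1072 TPM. At the low end were the neutral sphingomyelinase Smpd3 (1.13 to 2.21 TPM) and Degs2, listed at 0 in 3 libraries.

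Promoters of most cholesterol genes held a pair of words that a smaller share of expressed genes held together. The 2 most abundant members with an entry in the table, Hmgcs1 (chr13:119690101-119690350, plus strand) and Msmo1 (chr8:64733579-64733828, minus strand), are shown as examples, again as the 250 bases before the start from RefSeq in GRCm38.p6. Capitals mark the CCAAT box (CCAAT) and the GC box (GGGCGG) on either strand.
Hmgcs1: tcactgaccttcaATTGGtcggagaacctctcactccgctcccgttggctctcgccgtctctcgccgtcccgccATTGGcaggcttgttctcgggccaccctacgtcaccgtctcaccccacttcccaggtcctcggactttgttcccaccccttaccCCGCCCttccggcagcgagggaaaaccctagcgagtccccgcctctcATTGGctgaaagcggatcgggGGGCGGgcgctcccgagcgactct
Msmo1: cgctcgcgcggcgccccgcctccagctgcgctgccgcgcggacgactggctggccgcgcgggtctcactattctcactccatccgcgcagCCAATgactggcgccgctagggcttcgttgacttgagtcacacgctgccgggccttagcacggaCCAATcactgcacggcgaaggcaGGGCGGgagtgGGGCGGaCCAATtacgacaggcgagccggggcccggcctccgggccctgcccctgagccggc
Hmgcs1 and Msmo1 (768, 852, 813 and 913 TPM) each held 3 CCAAT boxes and 2 GC boxes. Of 17 cholesterol genes with an entry, 15 held a CCAAT box (88.2%, against 36.6% of the 9770 genes) and 16 a GC box (94.1%, against 61.6%). Both words were present in 15 of 17 (88.2%) against 22.2% of the 9770. The median content of G and C was 63.2% in the members and 60.8% in the 9770, and its part in these matches was not tested.

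Genes of successive lineage stages rose in level from precursor to myelin-forming cells. The median member stood at 22.5 TPM in the precursor list (24 genes), 109 TPM in the committed list (9), 181 TPM in the newly formed list (16) and 1334 TPM in the myelin-forming list (13), each as the mean of the 4 library medians. This order held in 4 of 4 libraries for medians and for summed shares, and no gene stood in more than 1 of these lists. The lists hold different genes, so their levels give no cell fractions. They were written with earlier results of these data known, so their order describes the lists and is not a test. The 24 late mature genes did not continue the order. Their median was 52.1 TPM, below the committed and newly formed lists in 4 of 4 libraries, while their sum (1.37 ± 0.181% of TPM) was above both.

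**Figure D3:**
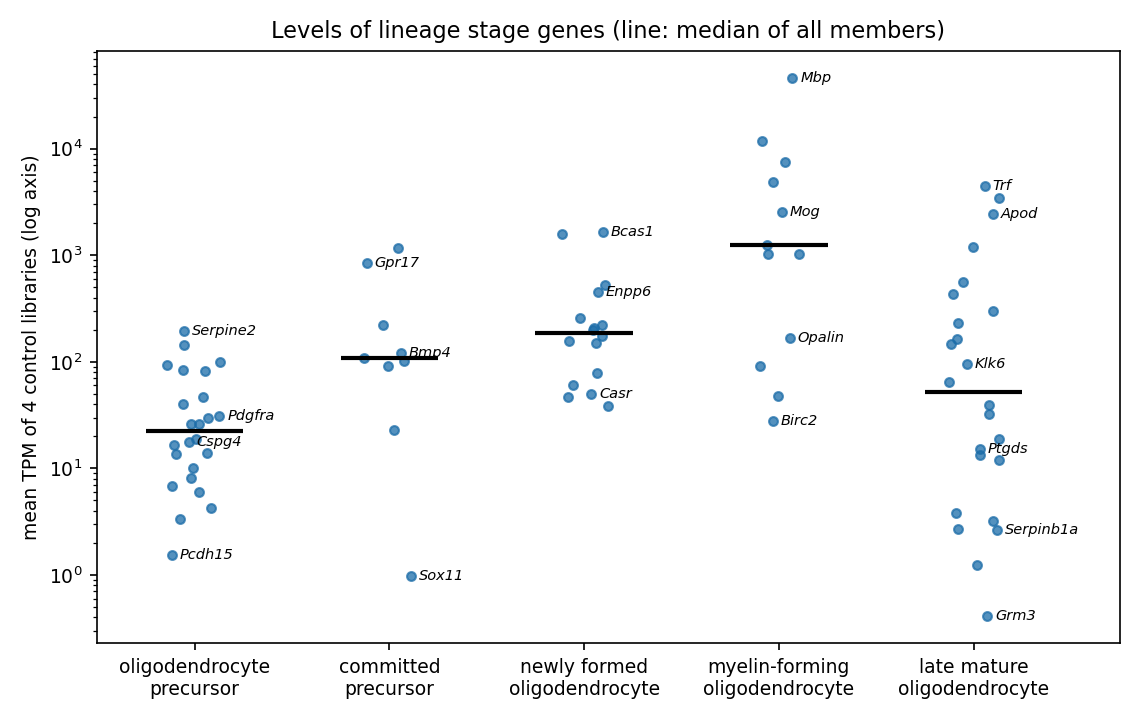
Mean TPM of the 4 control libraries (log axis) for genes of 5 lineage stage lists, with a line at the median of all members. Levels rise from precursor to myelin-forming genes, and the late mature list spreads from Grm3 at 0.41 TPM to Trf at 4475 TPM.

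Precursor genes were low but present in every library. Pdgfra, the growth factor receptor that defines precursors, stood at 25.5, 32.2, 43.2 and 24.1 TPM, and the proteoglycan Cspg4 (NG2) at 17.3, 9.94, 30.1 and 14 TPM. Both were highest in control 3, as were 23 of the 24 members, whereas 36.6% of all 9279 genes were highest there. With TMM scaling 19 of the 24 were highest in control 3, against 22.4% of all genes. The summed share was 0.136% in control 3 and 0.0874% to 0.0921% in the others, and its mean fell from 0.102% to 0.0904% without that library. Serpine2, a protease inhibitor, was the highest member (156 to 277 TPM) and the cadherin Pcdh15 the lowest (1.12 to 2.13 TPM). Mbp exceeded Pdgfra 991-fold in control 3 and 1507-fold to 1968-fold in the other libraries.

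The committed and newly formed genes covered a wide range. Fyn, a kinase that acts early in differentiation, stood at 890, 1085, 1541 and 1130 TPM, and Gpr17, a receptor that is switched on and off again during commitment, at 795, 725, 1108 and 780 TPM. Bmp4, a signal that opposes differentiation, stood at 95.3, 115, 173 and 105 TPM. All 3 were highest in control 3, as were 7 of 9 committed members on either scale. Sox11, a factor of immature cells, was near the limit at 0.614 to 1.52 TPM. Enpp6, a choline phosphodiesterase that marks newly formed cells, held a steady level of 408, 457, 471 and 466 TPM. Bcas1, another marker of newly myelinating cells, stood at 1459, 1711, 1946 and 1459 TPM. Tcf7l2, a Wnt effector of this stage, stood at 30.2 to 55.8 TPM and the calcium receptor Casr at 44.2 to 59.4 TPM. All 16 newly formed genes were above 10 TPM in every library, and 11 were above 100 TPM.

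Late mature genes split into high and low members. Trf, the actin-severing protein Gsn (2902 to 3993 TPM), the lipocalin Apod (2180, 2779, 1988 and 2818 TPM) and the septin Sept4 (1060 to 1436 TPM) were high. Hapln2, a link protein of nodes, stood at 167, 131, 132 and 156 TPM, and Klk6, a myelin-associated protease, at 98.4, 117, 66.0 and 105 TPM. Apod exceeded Klk6 22.1-fold to 30.1-fold. Ptgds, a prostaglandin synthase abundant in the adult lineage, reached only 8.90 to 18.7 TPM, Serpinb1a 1.41 to 3.52 TPM and the glutamate receptor Grm3 0.189 to 0.780 TPM. Control 3 had the lowest summed share (1.14%) and control 4 the highest (1.57%).

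Among transcription factors the core set of the lineage was strongly expressed. Olig1, required for maturation, stood at 1191, 1029, 1252 and 1308 TPM, Sox10, the lineage factor, at 1167, 1014, 995 and 930 TPM, and Olig2, which specifies the lineage, at 288, 233, 304 and 275 TPM. Olig1 exceeded Olig2 in every library with ranges far apart. Myrf, which activates myelin genes, had a narrow range of 657 to 738 TPM. The thyroid hormone receptor Thra stood at 974 to 1233 TPM and its relative Thrb at 0 to 0.430 TPM. Sox8 (205 to 271 TPM) and Nkx6-2 (160 to 290 TPM), both tied to differentiation, were well expressed, and Srebf2, the activator of cholesterol genes, exceeded Srebf1 in every library (276 to 331 against 54.4 to 69.7 TPM). Of factors that maintain precursors, Sox6 stood at 8.38 to 22.9 TPM, Sox5 at 1.44 to 6.33 TPM and Hes5 at 8.34 to 30.8 TPM, all 3 highest in control 3. Sox9, shared by precursors and astrocytes, stood at 0.603 to 2.40 TPM. In all, 42 of 53 measured factors reached 1 TPM in every library and 11 reached 100 TPM.

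Hox genes, which encode position along the body axis, were expressed at low levels from paralogue groups 1 to 10. Of 39 genes 21 reached 1 TPM in every library. Hoxd8 was highest at 20.9, 35.3, 45.2 and 32.9 TPM, and Hoxa7 stood at 20.01, 15.8, 19.8 and 17.8 TPM. Group 8 had the highest sum (42.7 TPM) and group 7 the next (25.6 TPM). No gene of groups 11, 12 or 13 reached 1 TPM in every library, and the 3 groups summed to 0.970, 0.207 and 0.111 TPM. Hoxb8 stood out in control 3 at 15.1 TPM against 2.82 to 4.29 TPM.

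Receptors, ligands and channels of myelinating cells formed a further layer. Gpr17 was the highest of 72 receptors, followed by the collagen receptor Ddr1 (579 to 780 TPM). The orphan receptors Gpr37l1 (395 to 572 TPM) and Gpr37 (169 to 212 TPM), the sphingosine phosphate receptor S1pr5 (133 to 154 TPM) and Fgfr2 (97.9 to 162 TPM) were above or near 100 TPM. The neuregulin receptors Erbb3 (37.9 to 62.7 TPM) and Erbb4 (6.08 to 7.94 TPM) exceeded Erbb2 (0.0681 to 0.668 TPM) in every library. Insulin-like growth factor receptor Igf1r stood at 3.29 to 6.03 TPM. Sema4d, a transmembrane semaphorin of oligodendrocytes, was the highest ligand at 3462, 3267, 2470 and 3194 TPM, lowest in control 3. The growth factor Ptn followed with 581 to 848 TPM, and Pdgfa, the ligand of Pdgfra, held 143 to 158 TPM, above its receptor in all 4 libraries. Nrg1, Bdnf and Igf1 were low (at most 3.08, 0.235 and 0.585 TPM).

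Gap junction and potassium channel genes were among the channels expressed. Gjb1 (connexin 32) stood at 516, 449, 325 and 428 TPM, highest in control 1 and lowest in control 3. The potassium channel Kcnj10 stood at 100.2, 146, 161 and 152 TPM, with control 1 lowest, and was the highest of 94 potassium channel genes, of which 57 had a mean under 1 TPM. Kcna1, the axonal channel of the juxtaparanode, stood at 6.004 to 9.26 TPM. Rala, the GTPase that the series deletes, stood at 32.7, 41.4, 38.4 and 36.4 TPM and Ralb at 13.5, 12.1, 19.0 and 14.3 TPM. Rala was thus 2.02-fold to 3.42-fold higher in these cells, which carried the Cre driver but no floxed Ral alleles. Ralgds, an exchange factor for Ral, was far higher at 351 to 441 TPM. All 9 exocyst subunits measured, the vesicle tethering complex that binds Ral, were above 1 TPM in every library, from Exoc6 (2.85 to 9.77 TPM) to Exoc7 (68.1 to 98.0 TPM).

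Markers of other cell types were present at low levels, and most were highest in control 3. Astrocyte genes (20) held 0.131%, 0.125%, 0.264% and 0.145% of TPM, and 19 of them were highest in control 3 (18 with TMM). Apoe, a lipid carrier that oligodendrocytes and microglia can also express, led at 786, 682, 1649 and 886 TPM. The other 19 astrocyte genes held 0.0528%, 0.0571%, 0.0989% and 0.0560%, a mean of 0.0662%. Gfap, the astrocyte filament, stood at 73.2, 70.0, 82.6 and 62.6 TPM with overlapping values, whereas the water channel Aqp4 stood at 6.08, 7.41, 24.5 and 7.82 TPM. Microglia genes (20) held 0.0402%, 0.0698%, 0.0998% and 0.0639%, with 16 highest in control 3 (16 with TMM). C1qa, a complement component of microglia, stood at 42.9, 70.3, 104 and 63.2 TPM and the purinergic receptor P2ry12 at 6.89, 19.99, 27.2 and 19.3 TPM. Both were lowest in control 1. Without control 3 the astrocyte share averaged 0.134% in place of 0.166%, and the microglia share 0.0580% in place of 0.0684%.

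Neuronal genes were lower still once Uchl1, which was at 308 to 347 TPM in every library, was set aside. The other 19 members held 0.0153%, 0.0146%, 0.0329% and 0.0142% of TPM, and without control 3 the full list averaged 0.0476% in place of 0.0517%. Snap25, of synaptic vesicle fusion, stood at 4.93, 4.31, 23.0 and 5.40 TPM, and the inhibitory marker Gad1 at 0.587, 1.01, 7.43 and 2.60 TPM. Control 3 was far above the others for both, and highest for 16 of 20 members (15 with TMM). Syt1 and Rbfox3 were at most 4.86 and 3.31 TPM.

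Vascular, Schwann and blood markers ranged from absent to over 100 TPM. Endothelial genes held 0.00961% on average, with Cldn5 at 8.80 to 24.8 TPM and Pecam1 at 2.25 to 4.53 TPM, 11 of 15 being highest in control 3. Pericyte and fibroblast genes held 0.0166%, most of it Mgp (102, 155, 55.3 and 96.2 TPM), while Pdgfrb, Col1a1 and Dcn stayed at or below 1.55, 2.48 and 0.0863 TPM. Schwann cell genes other than Mbp held 0.00560%. The transcription factor Pou3f1 (mean 25.45 TPM) and Pmp22, of peripheral myelin (mean 18.96 TPM), made up most of it, while Prx and Pmp2 stood at most at 0.928 and 0 TPM. The ependymal list held 0.00121%. Haemoglobin genes were detectable, with Hba-a1 at 91.6, 165, 229 and 91.1 TPM, although its near-identical copy Hba-a2 makes the split between them uncertain. Of 14 lymphocyte and granulocyte genes 8 were listed at 0 in every library.

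**Figure D4:**
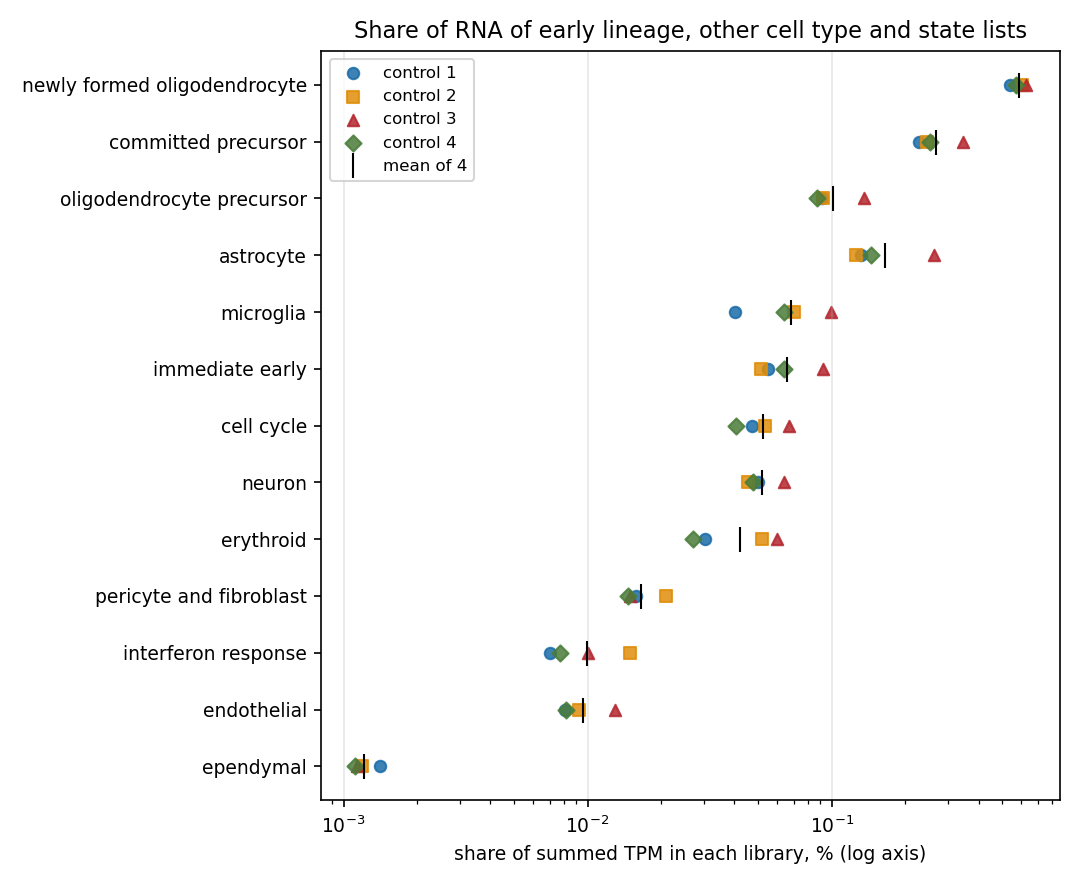
Share of summed TPM (log axis) held by 13 lists of early lineage, other cell types and cell states, with 1 point per control library and a tick at the mean of 4. Control 3 is the highest library for 10 of the 13 lists, control 2 for interferon response and pericyte genes and control 1 for ependymal genes.

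Cell state lists were highest in different libraries. Cell cycle genes (28) held 0.0521 ± 0.0112%, with 23 highest in control 3 (19 with TMM). Top2a, of chromosome separation, stood at 16.9, 18.2, 28.0 and 18.4 TPM, and the proliferation marker Mki67 at 2.66, 2.72, 3.87 and 1.89 TPM. Immediate early genes (24) held 0.0655 ± 0.0184%, with 20 highest in control 3 on either scale. Fos, which rises within minutes of stimulation or tissue handling, stood at 37.0, 43.3, 149.5 and 62.0 TPM. Interferon response genes (21) held 0.00991% and were highest in control 2 for 15 members (14 with TMM), such as Usp18 (0.487, 9.60, 0.539 and 0.257 TPM) and Irf7 (1.35, 10.1, 0.851 and 0.620 TPM). Of all 9279 genes 27.7% were highest in control 2 (24.4% with TMM). Integrated stress response genes (19) held 0.195% in control 1 and 0.173% to 0.176% in the others. Without control 2 the interferon share averaged 0.00824%, and without control 3 those of cell cycle and immediate early genes averaged 0.0472% and 0.0567%. Precursor, astrocyte, microglial, neuronal, dividing cell and immediate early genes thus moved together in control 3, and their part in each other's values was not tested.

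The spread between libraries was several times what counting alone gives. Across the 9279 genes the median coefficient of variation (CV, the SD as a percent of the mean) was 16.3%, against 4.69% expected from counts. For genes at a mean of 1 to 5 TPM, outside that set, the median was 37.4% (15.2% from counts). At 100 to 1000 TPM it was 11% (2.10% from counts), so the excess over counting remained at high levels. A CV over 50% was seen in 267 genes (2.88%), of which control 3 was the highest library in 163. It was the highest library in 36.6% of all 9279 genes. Without control 1 the median CV was 13.1%.

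**Figure D5:**
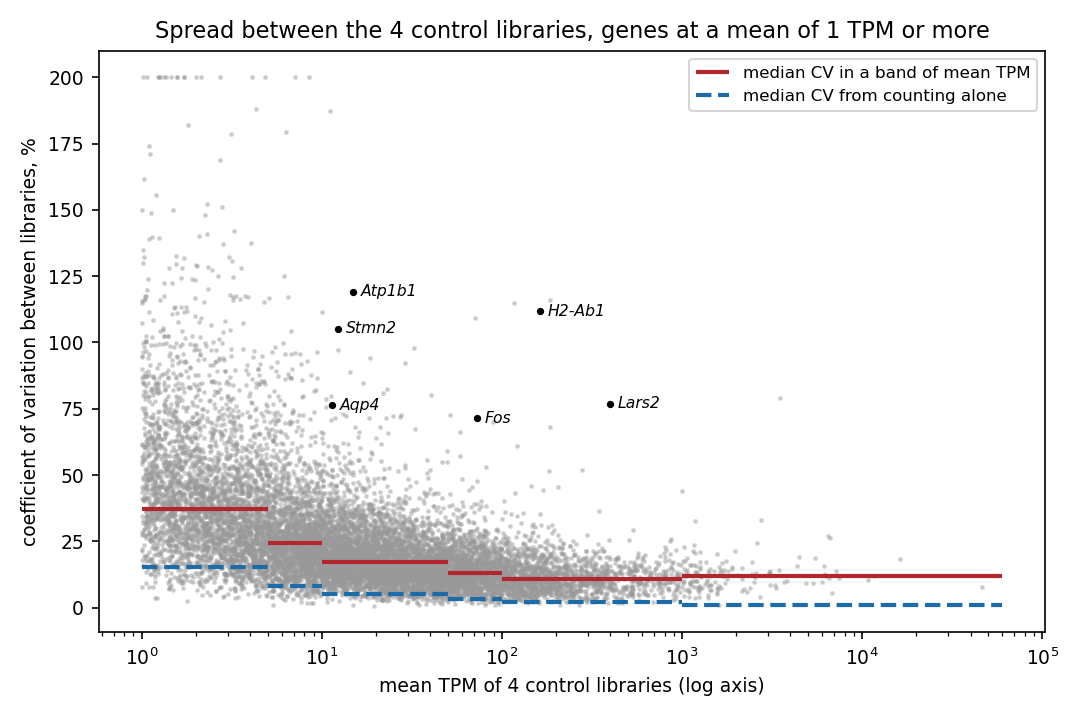
Coefficient of variation between the 4 control libraries (percent) against mean TPM (log axis), 1 point per gene at a mean of 1 TPM or more, with the median in bands of mean TPM and the median expected from counting. The measured median lies above the counting median in every band, and the named genes lie above 70%.

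Among protein-coding genes at 10 TPM or more, those with the largest spread differed in which library stood apart. Atp1b1, a neuronal sodium pump subunit, stood at 4.67, 6.49, 41.6 and 7.03 TPM, and Stmn2, of growing axons, at 3.34, 11.8, 30.9 and 3.37 TPM. Control 3 was the highest in both. Spata6, of the sperm tail, was high in control 4 (10.4, 8.73, 5.06 and 33.1 TPM), and Lars2, a mitochondrial leucyl-tRNA synthetase, in control 1 (854, 189, 295 and 257 TPM). The estimated counts of Spata6 ran only from 94 to 119 over the libraries. The part that read sharing between its transcripts has in its TPM was not tested. A different pattern joined controls 3 and 4: the class II antigen gene H2-Ab1 stood at 7.14, 7.45, 280 and 353 TPM, Gm10260 at 0, 0, 399 and 343 TPM, and Gm11361 at 0, 1.104, 240 and 225 TPM. Gm10260 and Gm11361 are predicted genes whose level depends on how reads from close copies are shared out. Cdk5rap2, of the centrosome, instead joined controls 1 and 3 (66.2, 3.06, 52.9 and 7.80 TPM). Its estimated counts ran from 160.5 to 523.4, a narrower fold range than that of its TPM. The part of read sharing between its transcripts was not tested either. These groupings were seen after the values were known and have no label in the sources used here. Y-linked Eif2s3y (11.75, 4.25, 0 and 0.0799 TPM) and Ddx3y divided the libraries as H2-Ab1, Gm10260 and Gm11361 did. Xist did not, being low in control 1 only (0.608, 17.9, 23.7 and 12.2 TPM). A link between them was not tested.

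The steadiest genes spanned a wide range of levels. Hnrnpll, a splicing factor, stayed at 19.4 to 19.7 TPM (CV 0.683%), the protease Pcsk6 at 34.3 to 34.9 TPM and Pigs, of lipid anchor synthesis, at 90.2 to 91.95 TPM. Nfasc kept to 1576 to 1615 TPM (CV 0.997%), while Mbp had a CV of 7.89%. A CV of 4 libraries is itself imprecise, and the lowest of 7089 ranked genes are chosen as such.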

How the data were processed

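RNA of 4 control libraries was described, labelled 1 per mouse, with 10.93 to 15.29 M estimated counts each. The 8 mutant libraries were not used. Per the file headers, each deposited file lists transcripts with their effective length, estimated count and TPM (transcripts per M). Trimmomatic 0.36, kallisto 0.44 and the build GRCm38.p6 are named in the submitters' processing notes, without their roles. The authors' TPM is corrected for transcript length and is relative, so a gene's value depends on all others.

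Transcripts were matched by identifier to GENCODE vM21. Of 121843 transcripts 121104 matched and 739 did not, which held 0.194% to 0.231% of TPM. Deposited TPM was summed over 35675 genes. Estimated counts made by the authors gave the expected counting CV (1 over the square root of the mean count), the check for duplicate libraries and an alternative scale. Chi-square per degree of freedom, over genes with at least 20 counts in a pair, was 9.64 to 39.5, so every pair differed beyond sampling noise and counted as separate. Shares are percent of summed TPM, ± is the SD of 4 libraries, and 48 gene lists were written by hand or, for families, by symbol (Tmem2 and Zfp191 were not matched). Motif words were searched in the RefSeq promoter table (GRCm38.p6), which had an entry for 9770 of 12691 genes at a mean of 1 TPM or more.

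Named genes came from sets fixed by rule, and the text gives only some members of most sets. The sets were the 5 markers, the 30 highest genes, the 8 highest long non-coding genes, the 8 highest members of each list and those under 1 TPM, all members of stage, cell type, transcription factor and Hox lists, the 20 protein-coding genes with the largest and the 10 with the smallest CV (mean of at least 10 TPM and 100 counts), and the genes first by count but not by TPM. Erbb3, Erbb4, Exoc6, Fgfr2, Hk1, Hk2, Igf1r, Kcna1, Mki67, Nrg1, Ralb, Scd1, Slc16a1, Smpd3, Usp18, the genes H2-Aa and Cd74, and the patterns described across libraries were chosen after their values were seen. The members and lists were chosen with earlier results of these data known. No test was made, since a single group was described. The spread calculation was tested on simulated data. Alternatives were shares of estimated counts, nuclear protein-coding genes only, a total without the 10 highest genes, medians, other thresholds and pseudocounts (0.1 in place of 1), TMM (edgeR 4.0.16) and DESeq2 1.42.0 size factors, and each library left out. Some genes are not reported here or drawn, though they count in lists and totals. Python 3.11.15 and pandas 2.3.3 were used.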

Additional observations from a re-analysis of the deposited data

Results flagged for a closer look

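Among 134 named genes and 48 lists, 24 of the 182 values (13.2%) had 1 library whose gap to the nearest of the others exceeded, as a part of the whole range, Dixon's 95% critical value for 4 samples. Chance gives about 1 in 20 such groups, and values that share genes or a library are not independent. Some of these genes were named for their large CV between these same libraries, or after their values were seen. The 13.2% can therefore not be set against that rate.

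Control 3 was the high library for Aqp4 (24.5 TPM against 6.08 to 7.82 TPM in the others), Atp1b1 (41.6 against 4.67 to 7.03 TPM), Snap25 (23.0 against 4.31 to 5.40 TPM), Rbfox3 (3.31 against 1.40 to 1.64 TPM) and Pecam1 (4.53 against 2.25 to 2.60 TPM). It was also high for Top2a (28.0 against 16.9 to 18.4 TPM), Hoxb8 (15.1 against 2.82 to 4.29 TPM) and Erbb2 (0.668 against 0.0681 to 0.133 TPM). Precursor genes held 0.136% there against 0.0874% to 0.0921%, and astrocyte genes 0.264% against 0.125% to 0.145%. The same library was low for secreted ligands (0.523% against 0.601% to 0.616%) and semaphorins (0.332% against 0.406% to 0.415%), lists that share Sema4d.

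Control 2 was high for mt-Co3 (9259 against 5487 to 5961 TPM), mt-Atp6 (9071 against 5407 to 5677 TPM), Irf7 (10.1 against 0.620 to 1.35 TPM), Usp18 (9.60 against 0.257 to 0.539 TPM) and Igf1 (0.585 against 0 to 0.0756 TPM). Control 1 was high for Gm42418 (7690 against 1936 to 2312 TPM), Lars2 (854 against 189 to 295 TPM), Thra (1233 against 974 to 995 TPM), Col1a1 (2.48 against 0.314 to 0.552 TPM) and integrated stress response genes (0.195% against 0.173% to 0.176%). Control 4 alone had a value for Degs2 (0.139 TPM) and was low for sex-linked genes (0.00124% against 0.00240% to 0.00256%). That list adds Xist to Y-linked genes, which went opposite ways in controls 1 and 3, so its total does not compare like RNA.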

How the results depend on the processing

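No paired analysis was possible because the results come from a single group and no test was made. Expressed as a share of estimated counts, myelin protein genes held 14.2%, ribosomal protein genes 2.80%, mitochondrially encoded genes 1.73%, cholesterol genes 1.41%, precursor genes 0.232%, newly formed genes 1.39%, neuron genes 0.0377% and the 10 highest genes 14.3%. This scale does not correct for length. Within nuclear protein-coding genes the shares were 12.4% for myelin and 9.997% for ribosomal protein genes. Without the 10 highest genes in the total they were 2.63% for myelin, 10.89% for ribosomal protein, 2.73% for mitochondrially encoded, 1.20% for cholesterol, 0.672% for newly formed and 1.58% for late mature genes, and 6.21% for the next 10 highest genes. The median CV was 19.8% at 1 TPM or more, 11.9% at 50 TPM or more and 35.8% with no filter, 16.1% with TMM, 16.3% with DESeq2 size factors, and 13.1% (without control 1) to 16.9% (without control 4) when a library was left out. The lowest pair correlation was 0.956 with a pseudocount of 0.1 and 0.950 at 50 TPM or more. The number of genes detected in every library was 8373 at a threshold of 5 TPM and 12490 at 0.5 TPM. For the other lists and the named genes, 200 of 501 values on the other scales moved by more than 1 SD, 117 of them on the count scale. Leaving out a library, or taking the median, cannot move a mean of 4 by 1 SD and says nothing here about stability. Depth limits genes under about 1 TPM, where a few counts set the value.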

Other observations

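The class II antigen genes were not level with each other. H2-Ab1 was at 280 and 353 TPM in controls 3 and 4, while its partner chain H2-Aa was at 8.35 and 11.9 TPM and the invariant chain Cd74 at 1.62 and 4.48 TPM. In controls 1 and 2 the 3 genes stood at no more than 7.45, 0.207 and 0.419 TPM. The non-coding RNA Gm26917 was highest in control 1, as Gm42418 and Lars2 were, at 186 TPM against 18.5 to 46.9 TPM. Malat1, an abundant nuclear RNA, was instead high in controls 1 and 3 (78.7 and 70.4 TPM) and low in controls 2 and 4 (22.5 and 26.1 TPM), as Cdk5rap2 was.

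Thumpd3, next to the Rosa26 locus that carries the reporter, stood at 32.7, 49.1, 35.3 and 31.0 TPM, and the locus transcript Gt(ROSA)26Sor at 9.54, 15.6, 11.6 and 10.5 TPM. Both were highest in control 2.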
